A study of Mus musculus with 6 samples.

Results

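The lysyl oxidase family of the mouse has 5 genes, Lox, Loxl1, Loxl2, Loxl3 and Loxl4, and 4 of them could be followed here among 22180 measured genes. Membership is by gene name, and each gene is represented by its brightest probe set among those annotated with a single gene symbol, a probe set being a group of array probes summarised to 1 value. Lox, Loxl1, Loxl3 and Loxl4 each had 1 such probe set. Loxl2 had none, because both probe sets that carry its name also carry the name of the predicted gene Gm21451, so Loxl2 was not analysed here.

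Gene expression was profiled on 6 Affymetrix arrays of C2C12 cells, a mouse myoblast line from ATCC that can fuse into multinucleate myotubes. In the Htt siRNA group, 3 arrays hold RNA of cells that received a pool of small interfering RNAs (siRNAs) directed at Htt, the mouse huntingtin gene. In the scramble group, 3 arrays hold RNA of cells transfected with scramble siRNA. Both groups are the same line grown in the medium its supplier recommends, the labels write HTT KO for what the protocol describes as siRNA transfection, and the labels do not say whether replicates were separate cultures, so the p-values measure a spread that may be technical.

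Lysyl oxidases are secreted copper-dependent enzymes that oxidise lysine and hydroxylysine side chains of collagen and elastin to aldehydes, which then react to form the covalent cross-links that give connective tissue its tensile strength. Lox and Loxl1 are made as pro-enzymes whose propeptides are cut off outside the cell by proteinases of the BMP1 family, while Loxl2, Loxl3 and Loxl4 carry scavenger receptor cysteine-rich domains in front of the catalytic domain. In mouse muscle, Lox is known for shaping the balance between muscle fibres and connective tissue, and Loxl3 for anchoring muscle fibres at the tendon.

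Htt, the targeted gene, was lower in all 3 Htt siRNA arrays than in any scramble array. Its log2 level was 4.49, 4.47 and 4.65 with Htt siRNA, against 5.59, 5.60 and 5.72 with scramble, a log2 fold change of -1.10 ± 0.09 (SE; limma adjusted p = 0.0559, just above the threshold of 0.05). The deposited values are on the log2 scale, and the arrays' medians lay between 2.59 and 2.67. Of the 10 myoblast lineage markers, all 10 had a mean above the median gene mean of 2.95, and the mean level of the list was 8.02 ± 0.01 with Htt siRNA and 7.80 ± 0.14 with scramble (SD, n = 3 each). Of the markers of other cell types, 0 of 7 endothelial, 1 of 7 adipocyte, 3 of 8 macrophage, 3 of 6 epithelial and 4 of 7 neuronal genes had a mean above that median. The mean level of the endothelial, adipocyte and macrophage lists lay between 2.29 and 3.02 with Htt siRNA and between 2.21 and 2.90 with scramble. It was 2.96 to 3.08 with Htt siRNA and 3.02 to 3.12 with scramble for the epithelial list, and 4.90 to 5.18 with Htt siRNA and 4.92 to 4.98 with scramble for the neuronal list, and the part of any of them in the results below was not tested. In RNA from whole cultures, fewer cells of a kind and less RNA per cell cannot be told apart.

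No lysyl oxidase gene differed between Htt siRNA and scramble beyond the spread between arrays. Limma called 0 of the 4 measured members at an adjusted p under 0.05, where it called 0 of 22180 genes in all (0%), and 0 of the 4 had an unadjusted p under 0.05. Over all genes, 5.72% were higher and 5.14% lower at an unadjusted p under 0.05. In all 4 members the groups overlapped, while over all genes 10.1% had every Htt siRNA array above every scramble array and 5.91% had every one below. One member, Loxl1, had a positive log2 fold change and 3 had negative ones, with a median of -0.07 beside 0.03 over all genes.

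Lox, the founding member and a main cross-linker of fibrillar collagen and elastin, was measured at log2 levels of 8.95, 9.45 and 9.07 in Htt siRNA replicates 1, 2 and 3. The scramble arrays stood at 9.05, 9.29 and 9.42. The lowest and the highest of the 6 values both belonged to Htt siRNA arrays, so the scramble arrays lay entirely within the range of the Htt siRNA arrays. Lox averaged 9.15 ± 0.26 with Htt siRNA and 9.25 ± 0.19 with scramble (SD, n = 3 each). The log2 fold change was -0.10 ± 0.15 (SE; limma adjusted p = 0.855), or 0.936-fold with a 95% confidence interval of 0.730 to 1.20-fold. An exact two-sided permutation test gave p = 0.8, where the smallest p that 3 against 3 arrays allow is 0.1. Without Htt siRNA replicate 1 the log2 fold change was 0.01, and without Htt siRNA replicate 2 it was -0.24.

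Loxl1, which in the mouse is needed to maintain elastic fibres, had the widest spread of the family. It stood at 7.31, 7.56 and 7.71 in Htt siRNA replicates 1, 2 and 3, against 7.07, 7.07 and 7.91 in scramble replicates 1, 2 and 3. All 3 Htt siRNA arrays were above scramble replicates 1 and 2, and all 3 were below scramble replicate 3. The averages were 7.53 ± 0.20 with Htt siRNA and 7.35 ± 0.48 with scramble (SD, n = 3 each). The log2 fold change was 0.17 ± 0.23 (SE; limma adjusted p = 0.820), or 1.13-fold with a 95% confidence interval of 0.778 to 1.63-fold, and the exact two-sided permutation p was 0.6. Leaving out 1 array moved this value to between 0.03 and 0.45. Without scramble replicate 3 the log2 fold change of Loxl1 was 0.45 ± 0.14 with an unadjusted p under 0.05 (limma adjusted p = 0.519). Without scramble replicate 1 or scramble replicate 2 it was 0.03, and without Htt siRNA replicate 1, 2 or 3 it was 0.28, 0.16 or 0.08.

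Loxl3, the member that in the mouse acts at the junction of muscle and tendon, had the largest absolute fold change of the 4 and the lowest p. Its log2 level was 6.90, 7.13 and 7.03 with Htt siRNA, against 6.98, 7.58 and 7.22 with scramble. Scramble replicates 2 and 3 were above every Htt siRNA array, and scramble replicate 1 lay between Htt siRNA replicates 1 and 3. Loxl3 averaged 7.02 ± 0.12 with Htt siRNA and 7.26 ± 0.30 with scramble (SD, n = 3 each). Its log2 fold change was -0.24 ± 0.15 (SE; limma adjusted p = 0.602), or 0.845-fold with a 95% confidence interval of 0.659 to 1.08-fold, and the exact two-sided permutation p was 0.3. Without scramble replicate 1 the log2 fold change of Loxl3 was -0.38 ± 0.14 with an unadjusted p under 0.05 (limma adjusted p = 0.470), and without scramble replicate 2 it was -0.08 ± 0.12.

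Loxl4, another member with scavenger receptor cysteine-rich domains, had the signal nearest to the median gene mean of 2.95, with an average of 4.46 over the 6 arrays. It measured 4.59, 4.59 and 4.16 in Htt siRNA replicates 1, 2 and 3, against 4.54, 4.49 and 4.42 in the scramble arrays. Htt siRNA replicates 1 and 2 were above every scramble array and Htt siRNA replicate 3 was below every one. Loxl4 averaged 4.45 ± 0.25 with Htt siRNA and 4.48 ± 0.06 with scramble (SD, n = 3 each), with a log2 fold change of -0.04 ± 0.13 (SE; limma adjusted p = 0.939). That is 0.975-fold, with a 95% confidence interval of 0.791 to 1.20-fold, and the exact two-sided permutation p was 1. Without Htt siRNA replicate 3 the sign turned and the log2 fold change was 0.11 ± 0.09. Its SE was the smallest of the 4 members. Weak signals can be compressed towards the background, which the interval does not cover and which was not measured here.

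**Figure D1:**
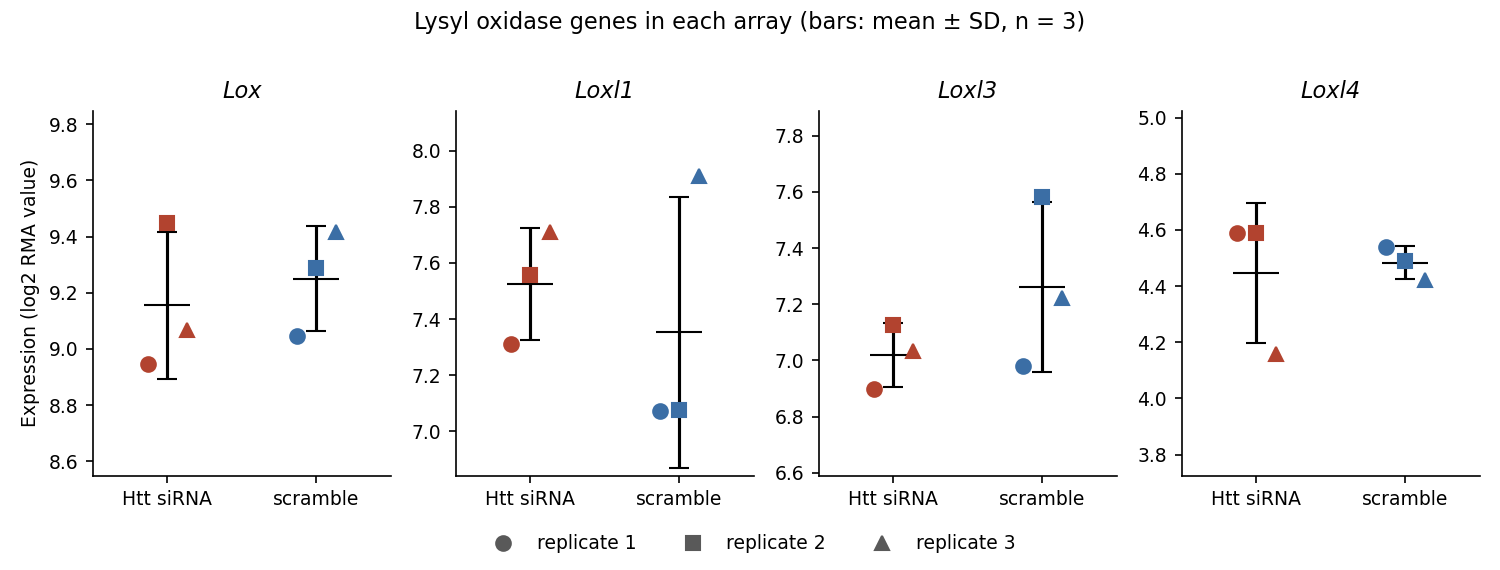
Log2 expression of Lox, Loxl1, Loxl3 and Loxl4 in each array, with Htt siRNA on the left and scramble on the right of each panel; symbols mark replicates 1 to 3, horizontal bars the means and vertical bars the SD (n = 3), and each vertical axis spans the same log2 width around its own gene. The groups overlap in every panel, and scramble replicate 3 in Loxl1 (7.91) and Htt siRNA replicate 3 in Loxl4 (4.16) lie apart from the rest of their groups.

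The 95% confidence intervals set what these arrays could show. A Lox level of 0.730-fold or of 1.20-fold lies at the edge of its interval, and the intervals of all 4 members include 1. For Loxl1 the upper bound was 1.63-fold, so a rise of that size remained within the error. The interval for Htt, 0.402 to 0.539-fold, shares no value with that of any lysyl oxidase gene. The intervals cover the spread between arrays and not any compression of weak signals, which was not measured.

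Over the 6 arrays, the distance from the lowest to the highest array was 0.50 for Lox, 0.84 for Loxl1, 0.68 for Loxl3 and 0.43 for Loxl4 on the log2 scale. The members did not share 1 pattern. Relative to its 6-array mean, Lox was low in Htt siRNA replicate 1 (-0.26), Htt siRNA replicate 3 (-0.14) and scramble replicate 1 (-0.16). It was high in Htt siRNA replicate 2 (0.25), scramble replicate 2 (0.09) and scramble replicate 3 (0.21). Loxl3 was below its mean in the same 3 arrays (-0.24, -0.11 and -0.16) and close to it in Htt siRNA replicate 2 (-0.02), with its high value in scramble replicate 2 (0.44). Loxl1 was instead low in scramble replicates 1 and 2 (-0.37 and -0.36) and high in scramble replicate 3 (0.47), and Loxl4 departed from its mean by more than 0.13 in 1 array, Htt siRNA replicate 3 (-0.31).

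The arrays in which Lox was low were those in which genes of the unfolded protein and integrated stress response were high, across both groups. The mean level of 21 such genes lay above its 6-array mean by 0.76 in Htt siRNA replicate 1, by 0.77 in Htt siRNA replicate 3 and by 0.84 in scramble replicate 1. The other arrays lay below the mean, at -1.07 for Htt siRNA replicate 2, -0.83 for scramble replicate 2 and -0.46 for scramble replicate 3. With that mean level as a covariate in limma, called the stress covariate, the log2 fold change of Lox was -0.03 ± 0.10 (SE; adjusted p = 0.930), with a standard error of 0.10 against 0.15 without the covariate. For Loxl3 it was -0.19 ± 0.12 (adjusted p = 0.566), for Loxl1 0.20 ± 0.23 (adjusted p = 0.770) and for Loxl4 -0.02 ± 0.13 (adjusted p = 0.968). The mean level of 19 S phase genes was -1.03, 0.34 and -0.75 in Htt siRNA replicates 1, 2 and 3, against 0.16, 0.76 and 0.52 in the scramble arrays. The 3 arrays with the highest Lox were also the 3 with the highest S phase level and the 3 with the lowest stress response level. By this split into 3 and 3 arrays, the stress and S phase lists cannot be told apart. Their levels did differ in scramble replicate 1, at 0.84 for the stress response and 0.16 for S phase. Both lists were chosen with earlier results of these data known. The part of either list in the Lox values was not tested, and the smaller standard error with the stress covariate does not decide it. The mean level of 12 terminal muscle differentiation genes, by contrast, was 1.10, 0.14 and 0.96 in the Htt siRNA arrays, against -0.65, -1.11 and -0.45 in the scramble arrays, so it parted the groups as none of the 4 lysyl oxidases did. Limma called 0 genes of these 3 lists. At an unadjusted p under 0.05, 0 of the 21 stress response genes differed, 17 of the 19 S phase genes were lower and 12 of the 12 differentiation genes were higher with Htt siRNA, as were 3 of the 10 myoblast lineage markers. The shares over all genes at that p were 5.72% higher and 5.14% lower.

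**Figure D2:**
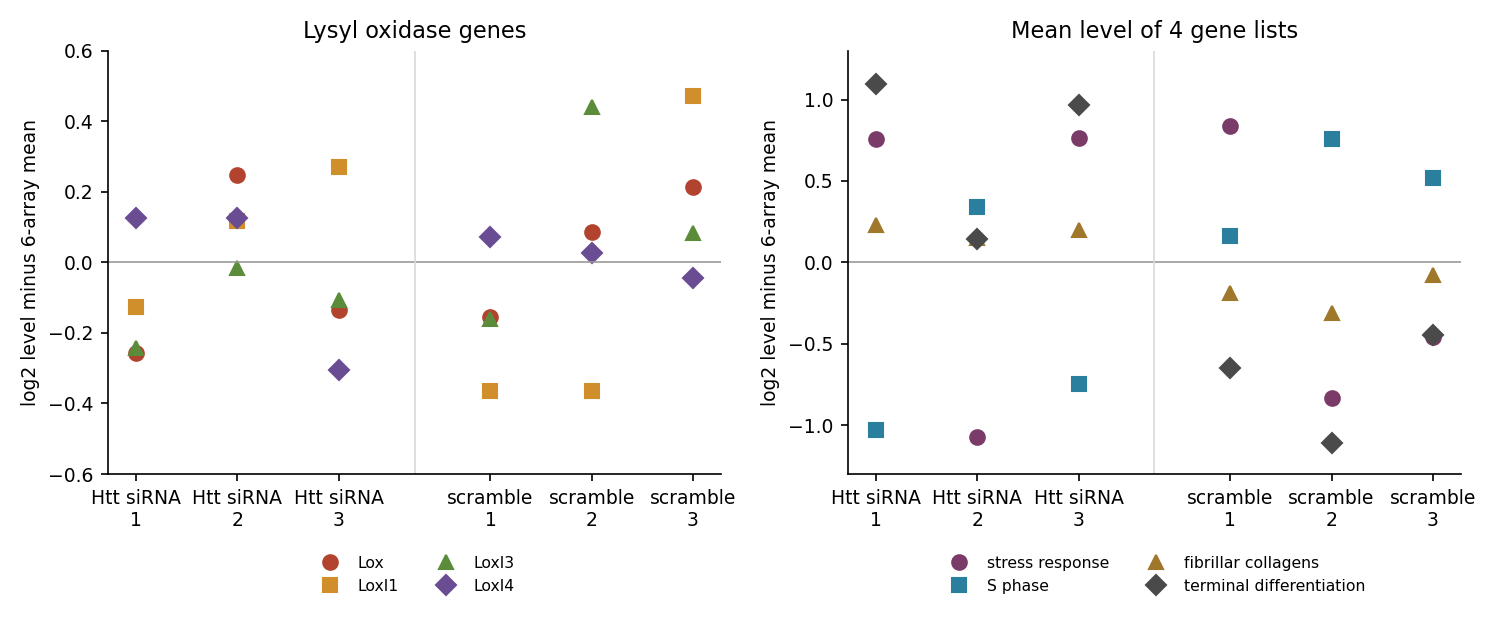
Left, log2 level of each lysyl oxidase gene in each array minus that gene's mean over the 6 arrays; right, the same for the mean level of the stress response, S phase, fibrillar collagen and terminal differentiation lists, on a wider axis. Lox is below 0 in Htt siRNA replicates 1 and 3 and scramble replicate 1, the 3 arrays whose stress response level lies at 0.76, 0.77 and 0.84, while the fibrillar collagens are above 0 in each Htt siRNA array and below 0 in each scramble array.

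Among the 11090 genes above the median gene mean, leaving out the member itself, those whose values over the 6 arrays were most like Lox were Hmgn3, a nucleosome-binding protein gene (Pearson r = 0.995), and Dpysl2, a cytoskeletal regulator (r = 0.989). Most like Loxl1 were Tusc3, a subunit of the oligosaccharyltransferase, and Selenon, an endoplasmic reticulum selenoprotein gene (r = 0.985 for each). Most like Loxl3 were the actin-binding profilin gene Pfn1 (r = 0.983) and the nucleoporin gene Nup50 (r = 0.981). Most like Loxl4 were Klhl18, an adaptor of a ubiquitin ligase (r = 0.996), and Zc3h15, a zinc finger protein gene (r = 0.993). These are descriptions over 6 points that share 1 normalization, with the highest values picked from all of those genes, and none of the 8 is itself a lysyl oxidase.

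The genes of fibrillar collagen chains, the main substrates of the family, had mostly higher values with Htt siRNA. Limma called 0 of 11 at the adjusted threshold. At an unadjusted p under 0.05, 8 of 11 were higher and 0 lower, where 5.72% of all genes were higher and 5.14% lower. The median log2 fold change was 0.31 beside -0.07 for the lysyl oxidases and 0.03 over all genes. In 8 of the 11 every Htt siRNA array was above every scramble array, as in 10.1% of all genes. Of the 11, 9 had a mean above the median gene mean of 2.95, and some of the 8 lay just above it, where signals are weak. Col1a1, the main chain of collagen I, stood at 8.10, 7.58 and 8.28 with Htt siRNA, against 6.73, 6.50 and 7.23 with scramble (log2 fold change 1.17 ± 0.23, adjusted p = 0.236). Col5a2 (0.63 ± 0.13, adjusted p = 0.257) and Col1a2 (0.44 ± 0.11, adjusted p = 0.301) followed. When Htt siRNA replicate 2 was left out the count of 8 became 5, and median centring of the arrays gave 5 as well. Centring also moved the split over all genes at an unadjusted p under 0.05 to 620 higher and 1893 lower, against 1269 higher and 1140 lower as deposited.

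Elastic fibre genes, whose products Lox and Loxl1 cross-link or are guided by, lay on both sides of 0. Limma called 0 of the 15 measured, with 1 higher and 4 lower at an unadjusted p under 0.05 and a median log2 fold change of 0.13. Of the 15, 9 had a mean above the median gene mean of 2.95. The elastin gene Eln was below it, with an average of 2.61 over the 6 arrays, where signals are weak. Fbn1 and Efemp2 had no probe set with a single gene symbol and were not measured. At that p, 5.72% of all genes were higher and 5.14% lower. Fbln5, the fibulin that in the mouse recruits Loxl1 to elastic fibres, stood at 6.69, 5.78 and 6.33 with Htt siRNA, against 5.78, 5.37 and 5.16 with scramble (0.83 ± 0.24, adjusted p = 0.365). Its groups overlapped only through Htt siRNA replicate 2 and scramble replicate 1, whose rounded levels were equal. Fbln1 (-0.41 ± 0.12, adjusted p = 0.381) and the latent TGF-beta binding protein gene Ltbp2 (-0.48 ± 0.18, adjusted p = 0.429) had negative values.

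Among the genes for proteinases that activate pro-enzymes and for proteins that bind the enzymes or their substrates, limma called 0 of 16. At an unadjusted p under 0.05, 4 were higher and 1 lower, beside 5.72% and 5.14% of all genes, and the median was 0.07. The 3 with the lowest p were the collagen-binding proteoglycan gene Dcn (1.69 ± 0.30, adjusted p = 0.184), Postn, whose matricellular product supports Lox activation in the mouse (1.04 ± 0.28, adjusted p = 0.334), and Fmod, whose product binds Lox on collagen (0.49 ± 0.13, adjusted p = 0.344). Of the 16, 11 had a mean above the median gene mean of 2.95. Fmod was below it, with an average of 2.88 over the 6 arrays, where signals are weak. Bmp1 and Pcolce2 were named after their values were seen. Pcolce2, a gene for an enhancer of procollagen processing and the member lower at an unadjusted p under 0.05, averaged 7.37 ± 0.51 with Htt siRNA and 8.05 ± 0.19 with scramble (SD, n = 3 each), with a log2 fold change of -0.68 ± 0.24 (SE; adjusted p = 0.404). Bmp1, the proteinase that cuts the Lox propeptide, averaged 7.97 ± 0.03 with Htt siRNA and 7.65 ± 0.19 with scramble (SD, n = 3 each), with a log2 fold change of 0.32 ± 0.11 (SE; adjusted p = 0.397), and each Htt siRNA array was above each scramble array.

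Genes for enzymes and chaperones that prepare collagen before the lysyl oxidases act on it gave no called gene, as limma called 0 of 22180 genes in all (0%). Of 17 genes of collagen hydroxylation and folding, 14 had positive log2 fold changes, as had 12919 of the 22180 genes in all. Limma called 0 of the 17, and 2 were higher and 0 lower at an unadjusted p under 0.05, beside 5.72% and 5.14% of all genes. The median was 0.17, against 0.03 over all genes. The 2 were the prolyl isomerase gene Fkbp14 (0.48 ± 0.12, adjusted p = 0.314) and P3h4, which belongs to a collagen-modifying complex (0.29 ± 0.09, adjusted p = 0.382). The collagen chaperone gene Serpinh1 had a value of 0.31 ± 0.14 (adjusted p = 0.474).

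Copper supply genes, a broad list that is not limited to copper delivery to the lysyl oxidases, had fold changes centred near 0. Limma called 0 of 14, with a median of -0.02. At an unadjusted p under 0.05, 0 were higher and 1 lower, beside 5.72% and 5.14% of all genes. The metalloreductase gene Steap3 had a value of -0.26 ± 0.11 (adjusted p = 0.454), Slc31a2, a copper transporter gene, 0.19 ± 0.12 (adjusted p = 0.592) and Steap2, another metalloreductase gene, -0.18 ± 0.12 (adjusted p = 0.621). Of 8 genes for other cross-linking enzymes and amine oxidases, 0 had an unadjusted p under 0.05 and limma called 0. The transglutaminase genes Tgm2 (0.43 ± 0.21, adjusted p = 0.498) and Tgm5 (0.22 ± 0.15, adjusted p = 0.649) and the amine oxidase gene Aoc2 (-0.14 ± 0.11, adjusted p = 0.662) had the lowest p of that list. Only 3 of the 8 had a mean above the median gene mean of 2.95. Aoc2 was below it, with an average of 2.73 over the 6 arrays, where signals are weak.

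Pathways known to induce lysyl oxidases in other settings had fold changes on both sides of 0. Limma called 0 of 22180 genes in all (0%), so the absence of called genes is not particular to these lists. The counts below stand beside 5.72% of all genes higher and 5.14% lower at an unadjusted p under 0.05. Of 13 TGF-beta pathway genes, limma called 0, and 2 were higher and 1 lower at an unadjusted p under 0.05, with a median of 0.03. Smad7, the inhibitory SMAD that TGF-beta induces as feedback, stood at 4.36, 4.32 and 4.19 with Htt siRNA, against 4.82, 4.85 and 4.75 with scramble (-0.52 ± 0.09, adjusted p = 0.174). The ligand gene Tgfb2 (0.39 ± 0.10, adjusted p = 0.314) and the receptor gene Tgfbr2 (0.36 ± 0.14, adjusted p = 0.435) had positive values. Of 13 hypoxia response genes, limma called 0, and 1 was higher and 0 lower at an unadjusted p under 0.05, with a median of -0.05; this was Arnt, the partner of the hypoxia-inducible factors (0.29 ± 0.11, adjusted p = 0.428). Egln3, a prolyl hydroxylase gene that hypoxia induces, had a value of -0.77 ± 0.34 (adjusted p = 0.470) and the glucose transporter gene Slc2a1 one of -0.19 ± 0.10 (adjusted p = 0.519). Of 6 genes for transcription factors of epithelial to mesenchymal transition, limma called 0, with Twist2 lower (-0.85 ± 0.30, adjusted p = 0.404) and Zeb1 higher (0.26 ± 0.10, adjusted p = 0.429) at an unadjusted p under 0.05 and Twist1 at 0.22 ± 0.13 (adjusted p = 0.573).

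**Figure D3:**
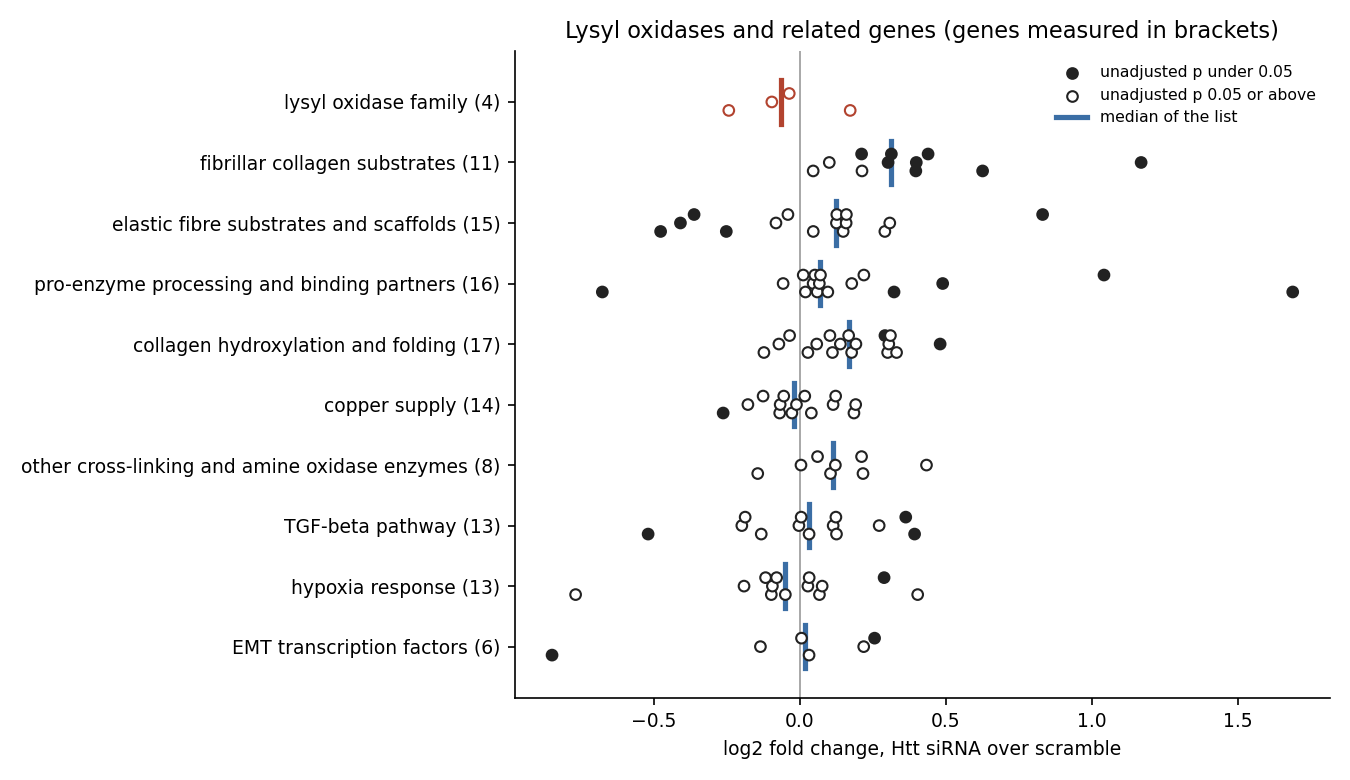
Log2 fold change, Htt siRNA over scramble, of each measured gene in the lysyl oxidase family and in 9 lists of related genes; filled points have an unadjusted limma p under 0.05, vertical bars are list medians, and points are spread vertically only for legibility. The 4 lysyl oxidases lie between -0.24 and 0.17 with 0 filled, while the 11 fibrillar collagens are all on the positive side with 8 filled. At that p, 5.72% of all genes were higher and 5.14% lower.

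The small fold changes of the 4 members were also examined under 14 other processing settings. Lox lay between -0.24 and 0.01, Loxl1 between 0.03 and 0.45, Loxl3 between -0.38 and -0.08 and Loxl4 between -0.11 and 0.11 on the log2 scale. Limma called 0 members in each of the 14, and the lowest adjusted p was 0.388, for Loxl3 with the replicate number as a block. In 4 of the 14 (the replicate block, the mean of a gene's probe sets, genes above the median level and the intensity trend) the fold changes of the members cannot move, since these settings alter only their errors or other genes. In the other 10, Loxl1 was positive and Loxl3 negative each time, while Lox turned positive in 1 and Loxl4 in 2.

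**Figure D4:**
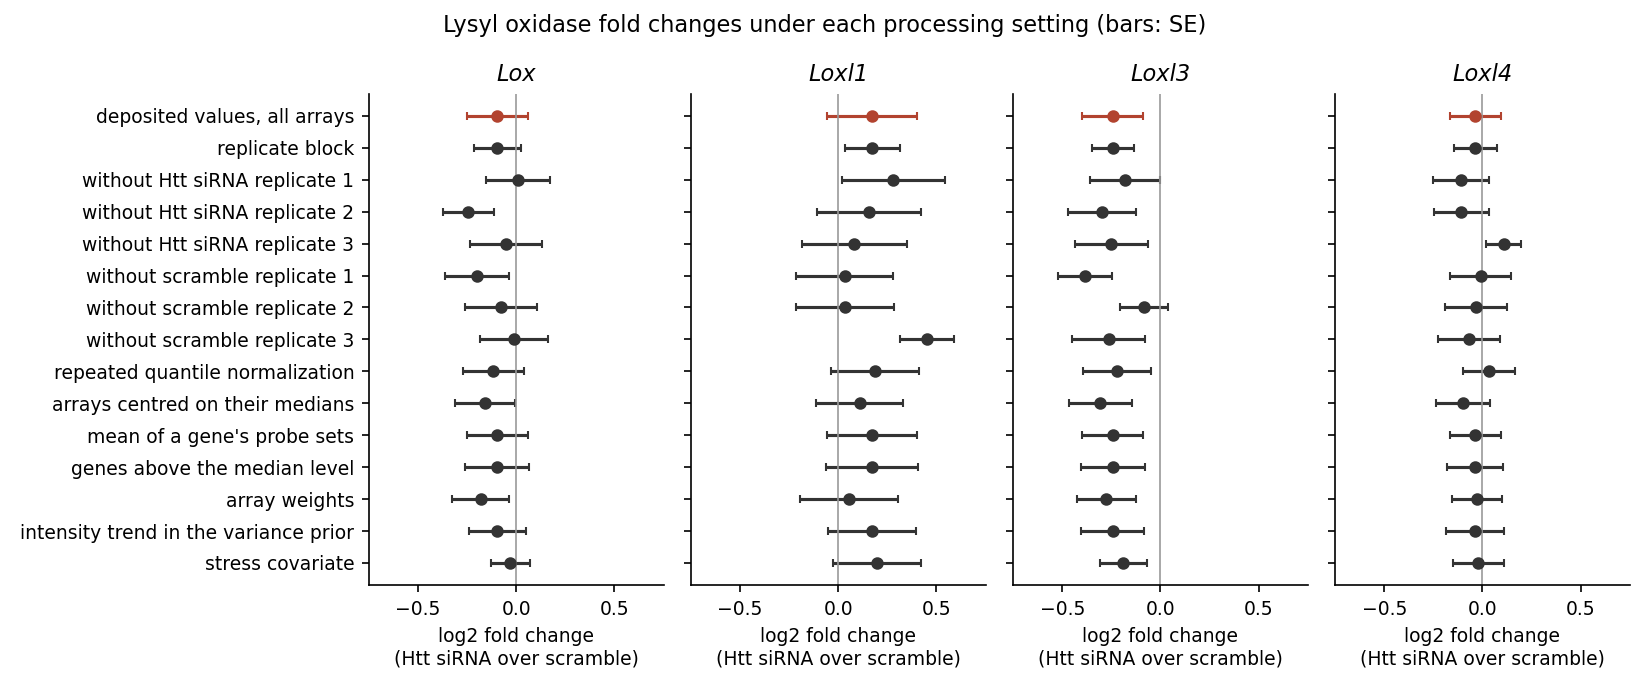
Log2 fold change, Htt siRNA over scramble, of each lysyl oxidase gene (points, with bars for the SE) under the deposited values and 14 other settings, 1 per line. Every setting stays within -0.38 and 0.45, and the largest shifts come from leaving out single arrays, such as scramble replicate 3 for Loxl1 (0.45).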

How the data were processed

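RNA of 6 C2C12 samples was measured on Affymetrix arrays. The authors deposited 1 table of log2 values for 41345 probe sets, and the submitters' processing notes name RMA and the affy package without versions. No genome build for the array is given in the sources used here, so no coordinates are printed. The quantile normalization in RMA hides changes in total RNA, and the table holds no detection calls. No value was missing, 0 pairs of arrays were identical, and r between arrays was 0.981 to 0.991 across probe sets. The number of arrays limits the precision.

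GEO's platform annotation named 23521 probe sets with 1 gene symbol, 1814 had several symbols and were not used, and the other probe sets are unnamed here. Of the 23521, 23328 matched a RefSeq table (GRCm38.p6) by Entrez identifier, with 0 symbols updated. The brightest probe set over the 6 arrays stood for each of 22180 genes, with no filter on dim genes. Limma 3.58.1 in R 4.3.3 (lmFit, eBayes, group as the only term, two-sided) was fitted across all genes, with Benjamini-Hochberg adjustment over all genes and a threshold of 0.05. Fold changes are Htt siRNA over scramble with moderated SE, and intervals are 95%. Figures used Python 3.11.15, pandas 2.3.3 and matplotlib 3.10.9.

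The members, gene lists and settings were chosen with earlier results of these data known. The text names Htt, the lysyl oxidases and the 2 genes most like each lysyl oxidase by Pearson r. It also names the 3 members of each pathway list with the lowest p. Bmp1, Pcolce2 and Eln were added after their values were seen, and Fbn1 and Efemp2 are named only as not measured. Of the muscle, stress and S phase lists, levels and counts are given with no gene named. Same-numbered arrays were checked for pairing by the correlation of their deviations from the group means, which was 0.35, 0.36 and 0.01 for numbers 1, 2 and 3. Different numbers gave -0.43 to 0.22, so the values for numbers 1 and 2 were the highest of all. The labels state no pairing, so the main fit left the numbers out, and a possible pairing was not settled. The replicate block is given as an alternative. Alternatives were a replicate block, each array left out, repeated quantile normalization, median centring, the mean of a gene's probe sets, genes above the median level, array weights, an intensity trend and the stress covariate.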

Additional observations from a re-analysis of the deposited data

How the results depend on the processing

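Limma called 0 lysyl oxidase genes under all 14 alternatives. The sign of Lox turned without Htt siRNA replicate 1 (0.0079; leaving out 1 array gave -0.24 to 0.0079), and the sign of Loxl4 turned without Htt siRNA replicate 3 (0.11; leaving out 1 array gave -0.11 to 0.11) and with repeated quantile normalization (0.032). Over all genes the number past the threshold, 0 as deposited, was 98 with the replicate block (41 higher and 57 lower), 3 with repeated quantile normalization, 3 with centred arrays, 3 among genes above the median level, 1 with array weights, 2 with an intensity trend and 77 with the stress covariate. Leaving out 1 array gave 0 to 540, with 540 when Htt siRNA replicate 2 was dropped and 1 when scramble replicate 1 was. The log2 fold change of Htt was -1.10 with the replicate block (adjusted p = 0.0128), -1.04 with repeated quantile normalization (0.0473), -1.16 with centred arrays (0.0260), -1.10 among genes above the median level (0.0326), -1.11 with weighted arrays (0.0438) and -1.11 with the stress covariate (0.0191), each past the threshold, and it was -1.10 with the mean of a gene's probe sets (0.0521) and with an intensity trend (0.0615), neither past it. Leaving out 1 array gave -1.16 to -1.06, past the threshold only without Htt siRNA replicate 2 (-1.07, adjusted p = 0.00778). The cause of these differences was not tested. The replicate block rests on shared numbers only, and it changed the call of no lysyl oxidase gene. With it the SE was 0.12 for Lox, 0.14 for Loxl1, 0.11 for Loxl3 and 0.11 for Loxl4. Without it the SE was 0.15, 0.23, 0.15 and 0.13. The count of 8 fibrillar collagens that were higher at an unadjusted p under 0.05 lay between 5 and 8, a check added after the data were seen.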
